A study of Mus musculus with 4 samples.

Results

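The genes described here, apart from Psmc3ip and Psme3ip1, encode the subunits, activators and assembly factors of the proteasome. They were found as the probe sets whose gene symbol begins with Psm, a letter from a to g and a digit, which gave 50 probe sets for 50 genes out of 22206 probe sets on the array. Psmc3ip and Psme3ip1, taken in by their symbols, are counted among the 50 proteasome genes below. Neuro-2a is a cell line from a mouse neuroblastoma of an albino strain A animal, and the arrays were Affymetrix Clariom S Mouse arrays. A group of 2 arrays came from cells kept for 24 h in medium with 0.1% DMSO (vehicle), and the other 2 came from cells kept for 24 h with 30 µM deltamethrin, a pyrethroid insecticide. No DMSO content is recorded here for the deltamethrin arrays. All 4 arrays share the line, the medium with 10% serum and the semi-confluent start. The labels do not say whether the arrays of a group came from separate cultures, so the p-values measure only the spread between these arrays, which may be technical. RNA of a whole culture was read, so a change in every cell and a change in some of the cells cannot be told apart. The labels name no batch, and a batch effect and the treatment cannot be told apart.

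The proteasome is the large protease that degrades proteins marked with ubiquitin chains. Its core particle, 20S, is a barrel of outer alpha rings and inner beta rings, and 3 kinds of beta subunit carry the cutting sites. The regulatory particle, 19S, sits on the barrel, binds ubiquitin chains, removes them, and unfolds and feeds in the substrate with a ring of ATPases. Dedicated chaperones build both particles, other caps such as PA28 and PA200 can replace 19S, and interferon exchanges the cutting subunits for those of the immunoproteasome. When proteasomes fall short, the transcription factor NRF1, product of Nfe2l1, is released from the endoplasmic reticulum and raises the transcription of most subunit genes together. The comparison asks how far these transcripts differed between exposed and vehicle-treated cells.

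Values are log2 probe set values, and the arrays' medians over all probe sets lay between 5.60 and 5.63, with maxima of 18.65 to 18.75. Of the 50 proteasome genes, 46 had a mean over the 4 arrays that exceeded the median level on the array, and the highest value on any array was 16.1, below the array maxima. Sympathoadrenal markers fixed for the cell type check were above the array median on all arrays for 9 of 11 measured genes. Of the macrophage and microglia markers 1 of 7 was, and of the fibroblast (6 measured) and astrocyte (5 measured) markers 0 were. None of these markers passed an adjusted p below 0.05 in the limma fit given below, where 0.432% of all probe sets did. The sympathoadrenal markers had a median log2 fold change, deltamethrin minus vehicle, of -0.235. Their estimates ran from -1.255 (Dbh) to 0.90 (Th), with Isl1 at -1.14 and Phox2a at -0.77.

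Transcripts of the proteasome differed little between the groups. In the limma fit over all probe sets, 0 of 50 genes passed an adjusted p below 0.05, where 0.432% of all probe sets did. Of the 50 genes 0 rose (0.356% of all probe sets) and 0 fell (0.0766% of all probe sets). At these shares most sets of 50 genes would hold no call. Counts of 0 here and in the smaller classes below therefore say little about these genes. At an unadjusted p below 0.05 there were 2 genes, Psmd4 and Psmd9, both higher, where 13.7% of all probe sets passed and 18.5% of those above the median level did. The log2 fold changes, deltamethrin minus vehicle, ran from -0.44 (Psmc3ip) to 0.49 (Psmd4), with a median of 0.00 beside -0.02 over all probe sets. Leaving out Psmc3ip and Psme3ip1, the lowest estimate was -0.425 (Psmg3). The estimate was above 0 for 25 genes and below 0 for 25, where 46.4% of all probe sets were above 0.

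The intervals also give a range for the size of the differences, as far as the spread between these arrays goes. If the arrays of a group were technical replicates, the intervals leave out the spread between cultures. For these genes the estimates had a standard error (SE) of 0.18 at the median, and the 95% intervals of all 50 genes lay inside a 2-fold change in either direction, as they did for 84.5% of all probe sets. These intervals are per gene, not adjusted over the genes, and rest on the moderated variances of the fit. With ordinary variances, which have 2 degrees of freedom, 36 of 50 intervals lay inside that range. The lowest lower bound was -0.90, that of Psmg3, and the highest upper bound was 0.92, that of Psme2b. Every estimate was also smaller than 0.5 in size, which 12.8% of all probe sets were not.

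**Figure D1:**
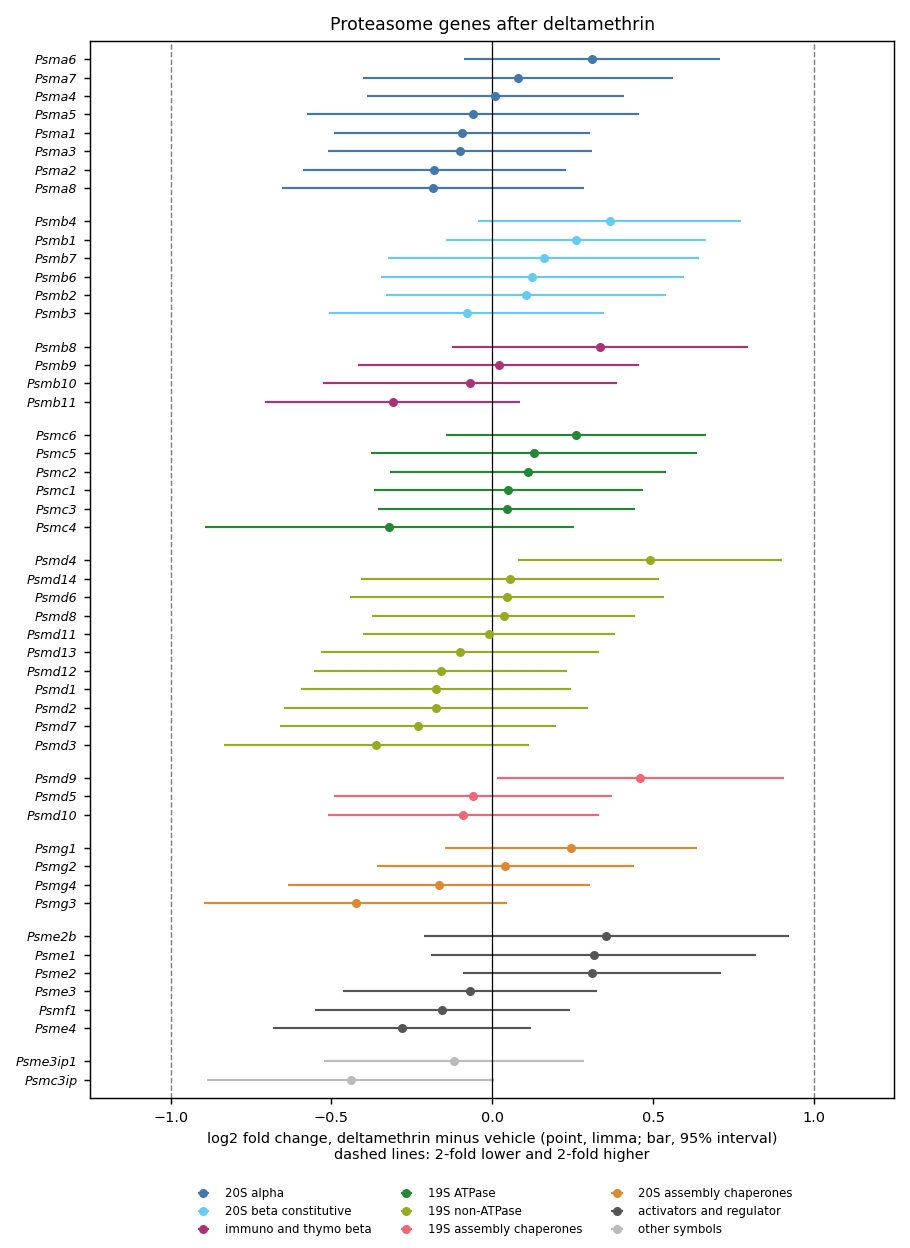
Log2 fold change of each proteasome gene, deltamethrin minus vehicle (horizontal axis), with genes in rows grouped and coloured by class. Points are limma estimates from 2 arrays per group and bars are 95% intervals; all 50 bars lie between the dashed lines at a 2-fold change, and the estimates run from -0.44 to 0.49.

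Arrays of different groups differed by about as much as arrays of the same group, or by more, depending on the pair. Over the 50 genes the median absolute difference was 0.165 between the vehicle arrays and 0.15 between the deltamethrin arrays. Between 1 vehicle and 1 deltamethrin array it ran from 0.155 to 0.24 over the 4 possible pairs. For the 11103 probe sets above the median level the same medians were 0.17, 0.18 and 0.24 to 0.26. The sets were not matched for level. The 50 genes had medians of 13.335 to 13.465 on the arrays, beside 5.605 to 5.63 over all probe sets. The groups did not overlap for 20 of the 50 genes, 9 with both deltamethrin arrays higher (20.3% of all probe sets) and 11 with both lower (23.5% of all probe sets). Without regard to direction this held for 43.9% of all probe sets and 52.9% of those above the median level.

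**Figure D2:**
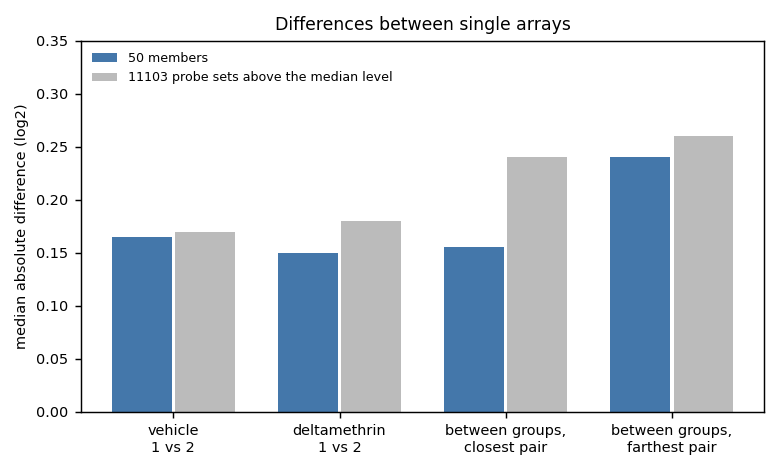
Median absolute log2 difference (vertical axis) between single arrays, for the 50 proteasome genes (blue) and for the 11103 probe sets above the median level (grey). The bars for the proteasome genes lie at 0.165 and 0.15 within groups and at 0.155 to 0.24 between groups. The sets were not matched for level.

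Promoter sequences describe these genes apart from the arrays. The RefSeq promoter table (GRCm38.p6, 250 bases before and 50 after each start) held 42 of the 50 genes with 46 promoters. Motifs were searched on both strands, and a match describes letters only. The antioxidant response element to which NRF1 and NRF2 bind was searched in a stricter form, TGACNNNGC, and a looser one. The stricter form was in 5 of 46 promoters (10.9%) beside 12.4% of all 32851 promoters. The looser form, TGANNNNGC, which has the same length and includes every stricter match, was in 26 (56.5%) beside 41.3%. The ETS core CCGGAAG, bound by ETS family factors, was in 17 of 46 promoters (37.0%) beside 8.86% of all. The SP box GGGCGG was in 25 (54.3%) beside 35.7%, and the CCAAT box in 16 (34.8%) beside 37.4%. The promoters compared were not matched for base composition, and the differences in share were not tested.

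The windows around the stricter form of the antioxidant response element are shown because NRF1 works through this element. Capitals mark the match, and each line reads 5′ to 3′ in the direction of the gene.
Psmb6, chr11:70525328-70525356, plus strand: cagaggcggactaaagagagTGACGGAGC
Psmc6, chr14:45329577-45329625, plus strand: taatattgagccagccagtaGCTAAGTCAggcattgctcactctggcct
Psmd9, chr5:123228139-123228187, plus strand: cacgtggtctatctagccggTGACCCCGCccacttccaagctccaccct
Psmd12, chr11:107479278-107479309, plus strand: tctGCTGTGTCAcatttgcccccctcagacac
Psme4, chr11:30771748-30771796, plus strand: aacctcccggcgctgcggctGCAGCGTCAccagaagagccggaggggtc
In Psmb6 and Psmd9 the element reads in the direction of the gene, starting 9 and 31 bases before the start site. In Psmc6, Psmd12 and Psme4 it lies on the opposite strand. The log2 fold changes of these genes were 0.12 for Psmb6, 0.26 for Psmc6, 0.46 for Psmd9, -0.16 for Psmd12 and -0.28 for Psme4, so their estimates lay on both sides of 0. Their median was 0.12, beside -0.06 for the genes whose promoters held no match to the stricter form.

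The ETS core was the motif whose share among these promoters lay farthest above its share among all promoters, and windows are shown for 6 of the genes described below, with the core in capitals.
Psma6, chr12:55398673-55398719, plus strand: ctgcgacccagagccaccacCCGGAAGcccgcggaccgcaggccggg
Psmc6, chr14:45329704-45329750, plus strand: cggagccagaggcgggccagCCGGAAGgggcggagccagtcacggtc
Psmc3ip, chr11:101095486-101095532, minus strand: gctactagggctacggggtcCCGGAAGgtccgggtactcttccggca
Psmd4, chr3:95042713-95042759, minus strand: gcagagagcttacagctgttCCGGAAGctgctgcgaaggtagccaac
Psme4, chr11:30771702-30771748, plus strand: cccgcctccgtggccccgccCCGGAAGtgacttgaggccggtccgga
Psmg1, chr16:95991003-95991049, minus strand: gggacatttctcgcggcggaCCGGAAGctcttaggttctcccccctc
Psma6 and Psmc3ip hold 3 matches each, of which 1 is shown. Psmg3 and Psme3ip1 have their match past the start site, and it is not shown. The estimates of the 6 genes shown ran from -0.44 (Psmc3ip) to 0.49 (Psmd4). The median log2 fold change of the 16 genes with an ETS core was -0.04, and that of the genes without one was -0.02.

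The alpha subunits form the outer rings of the core and gate its entrance. Of 8 alpha genes 0 passed, 3 had estimates above 0, and their median was -0.08. Psma6 was highest, with values of 15.01 and 14.90 on the vehicle arrays and 15.24 and 15.29 on the deltamethrin arrays. Both deltamethrin arrays lay above both vehicle arrays, and the log2 fold change was 0.31 ± 0.16 (SE, adjusted p = 0.472). Psma8, the testis form of an alpha subunit, was lowest at 3.30 and 3.12 with vehicle and 2.85 and 3.20 with deltamethrin. It was dim on every array, its groups overlapped, and its estimate was -0.18 ± 0.19 (adjusted p = 0.738). The others, Psma1 to Psma5 and Psma7, had estimates between -0.18 (Psma2) and 0.08 (Psma7). Psma4 was at 15.15 and 15.02 with vehicle and at 15.06 and 15.13 with deltamethrin, a difference of 0.01 with an interval from -0.39 to 0.41.

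The constitutive beta subunits include the cutting subunits Psmb6, with caspase-like activity, and Psmb7, with trypsin-like activity. The third, Psmb5, was matched to no probe set by symbol and is not analysed here. Of 6 beta genes 0 passed, 5 had estimates above 0 and the median was 0.14. Psmb4 was highest, at 12.20 and 12.39 with vehicle and 12.67 and 12.65 with deltamethrin. Its groups did not overlap, and the log2 fold change was 0.36 ± 0.17 (adjusted p = 0.410). Psmb1, at 13.89 and 14.05 with vehicle and 14.24 and 14.22 with deltamethrin, also had both deltamethrin arrays higher. Psmb3 was at 12.15 and 12.27 with vehicle and at 12.01 and 12.25 with deltamethrin. Its groups overlapped, and its estimate of -0.08 ± 0.18 (adjusted p = 0.891) was the one below 0 among the beta genes.

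Psmb6 was at 14.28 and 13.90 with vehicle and at 14.27 and 14.16 with deltamethrin. The vehicle arrays differed by more than the groups did, and the estimate was 0.12 ± 0.20. Psmb7 was at 14.65 and 15.03 with vehicle and at 14.90 and 15.10 with deltamethrin, an estimate of 0.16 ± 0.20. The remaining beta gene, Psmb2, had an estimate of 0.10.

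The immunoproteasome subunits Psmb8, Psmb9 and Psmb10 replace the cutting subunits in cells exposed to interferon, and Psmb11 does so in the thymus. Of these 4 genes 0 passed, 2 had estimates above 0, and the median was -0.02. Psmb8 was at 7.20 and 7.55 with vehicle and at 7.77 and 7.65 with deltamethrin. Both deltamethrin arrays were higher, and the estimate was 0.34 ± 0.19 (adjusted p = 0.505). Psmb9 was at 5.08 and 5.31 with vehicle and at 5.12 and 5.31 with deltamethrin, so its groups overlapped almost fully. Psmb10 was at 7.08 and 7.44 with vehicle and at 7.20 and 7.18 with deltamethrin, and both deltamethrin values lay between the vehicle values. Psmb11 was dim, at 3.40 and 3.38 with vehicle and 3.02 and 3.14 with deltamethrin, an estimate of -0.31 ± 0.16 (adjusted p = 0.473). Psmb9 and Psmb11 lay below the median level of all probe sets, and the table holds no detection call, so such values may be background.

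Genes that work with the immunoproteasome in antigen processing were counted as a list, of which 16 of 18 were measured. In it 0 passed (0.432% of all probe sets), 12 of 16 estimates were above 0 (46.4% of all probe sets), and the median was 0.16. At an unadjusted p below 0.05 there were 2 of 16, near the 13.7% of all probe sets. H2-D1, a class I histocompatibility heavy chain, was at 9.59 and 9.99 with vehicle and at 10.22 and 10.64 with deltamethrin. Both deltamethrin arrays were higher, and the estimate was 0.64 ± 0.23 (adjusted p = 0.305); probes may also read related class I genes. Irf9, which carries interferon signals to the nucleus, was dim, at 4.58 and 4.87 with vehicle and at 5.14 and 5.20 with deltamethrin. Its groups did not overlap, and the estimate was 0.44 ± 0.18 (adjusted p = 0.358). Irf1, the factor that induces immunoproteasome genes, was at 0.18, and B2m, the class I light chain, was at 0.22. Psmb9, Tap1, Psmb8 and Tap2 are neighbours on chromosome 17 in that order in the RefSeq annotation. Tap1 and Tap2 encode the peptide transporter, and Tap1 had an estimate of -0.10. Tap2 was at 8.05 on both vehicle arrays and at 8.20 and 8.91 with deltamethrin, an estimate of 0.50 ± 0.26 (adjusted p = 0.448). It rested on deltamethrin replicate 2, without which it was 0.15, and 0 of the 4 genes of this block passed.

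The ATPases form the unfolding ring at the base of the 19S particle. Of 6 ATPase genes 0 passed, 5 had estimates above 0 and the median was 0.08. Psmc6 was highest, at 13.78 and 13.85 with vehicle and 14.15 and 14.00 with deltamethrin. Its groups did not overlap, and the estimate was 0.26 ± 0.17 (adjusted p = 0.556). Psmc4 was lowest, at 15.55 and 15.01 with vehicle and at 15.12 and 14.80 with deltamethrin. The vehicle arrays were 0.54 apart, the groups overlapped, and the estimate was -0.32 ± 0.24 (adjusted p = 0.613). Psmc1, Psmc2, Psmc3 and Psmc5 lay between 0.04 and 0.13, each with overlapping groups.

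The non-ATPase subunits of 19S hold the ubiquitin receptors, the deubiquitylase and the scaffold of the lid. Of 11 genes 0 passed, 4 had estimates above 0 and the median was -0.10. Psmd4, a ubiquitin receptor, had the highest estimate of all 50 genes. It was at 12.21 and 12.14 with vehicle and at 12.57 and 12.76 with deltamethrin. Both deltamethrin arrays lay above both vehicle arrays, and the log2 fold change was 0.49 ± 0.17 (adjusted p = 0.298), a fold of 1.40 with an interval from 0.08 to 0.90 on the log2 scale. Psmd3, a scaffold subunit of the lid, was lowest in the class, at 13.96 and 14.19 with vehicle and 13.55 and 13.88 with deltamethrin. Both deltamethrin arrays were lower, and the estimate was -0.36 ± 0.20 (adjusted p = 0.486).

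Psmd14, the deubiquitylase of the lid, was at 13.66 and 13.42 with vehicle and at 13.74 and 13.45 with deltamethrin. Replicates of a group differed by more than the groups, and the estimate was 0.06 ± 0.19. Psmd7, its partner in the lid, was at 15.99 and 16.10 with vehicle and at 15.69 and 15.94 with deltamethrin, an estimate of -0.23. Psmd1 and Psmd2, the large scaffold subunits of the base, were both at -0.18, with overlapping groups for Psmd2 and both deltamethrin arrays lower for Psmd1. Psmd12, a lid subunit, was at -0.16 with both deltamethrin arrays lower. Psmd6, Psmd8, Psmd11 and Psmd13 had estimates between -0.10 and 0.04 and overlapping groups.

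Psmd5, Psmd9 and Psmd10 encode chaperones that assemble the 19S base and leave before it is finished. Of these 3 genes 0 passed, 1 had an estimate above 0 and the median was -0.06. Psmd9 was at 9.84 and 9.73 with vehicle and at 10.09 and 10.40 with deltamethrin. Both deltamethrin arrays were higher, and the estimate was 0.46 ± 0.19 (adjusted p = 0.354). Psmd10, the protein also named gankyrin, was at 11.94 and 12.13 with vehicle and at 12.02 and 11.87 with deltamethrin, an estimate of -0.09 ± 0.17 (adjusted p = 0.872). Psmd5 was at -0.06, and both genes had overlapping groups.

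The products of Psmg1 to Psmg4 guide the alpha ring and the barrel into shape. Of 4 genes 0 passed, 2 had estimates above 0 and the median was -0.06. Psmg1 was highest, at 12.48 and 12.50 with vehicle and at 12.77 and 12.70 with deltamethrin. The groups did not overlap, and the estimate was 0.24 ± 0.16 (adjusted p = 0.569). Psmg2, whose product pairs with that of Psmg1, was at 0.04 with overlapping groups. Psmg3 was dim, at 4.25 and 4.42 with vehicle and 3.73 and 4.09 with deltamethrin, an estimate of -0.42 ± 0.20 (adjusted p = 0.407). Psmg4, whose product pairs with that of Psmg3, was at -0.16.

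Psme1 and Psme2 encode the interferon-induced PA28 cap, Psme3 its nuclear form, Psme4 the PA200 cap, and Psmf1 the regulator PI31. Of these genes together with Psme2b, 6 in all, 0 passed, 3 had estimates above 0 and the median was 0.12. Psme2b, which is closely related to Psme2, was highest, at 7.35 and 7.17 with vehicle and at 7.91 and 7.32 with deltamethrin. A single deltamethrin array was high, the groups overlapped, and the estimate was 0.36 ± 0.24 (adjusted p = 0.570). Values of Psme2b and Psme2 are uncertain where their probes share sequence. Psme2 was at 10.76 and 10.70 with vehicle and at 10.97 and 11.11 with deltamethrin, an estimate of 0.31 ± 0.17 with both deltamethrin arrays higher.

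Its partner Psme1 was at 15.20 and 14.93 with vehicle and at 15.58 and 15.18 with deltamethrin, an estimate of 0.32 ± 0.21 with overlapping groups. Psme4 was lowest, at 13.39 and 13.54 with vehicle and at 13.20 and 13.17 with deltamethrin. Both deltamethrin arrays were lower, and the estimate was -0.28 ± 0.17 (adjusted p = 0.524). Psme3 and Psmf1 were at -0.07 and -0.16.

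The symbol rule also took in 2 genes that encode no part of the particle. Psmc3ip, whose product acts in homologous recombination, was at 9.48 and 9.15 with vehicle and at 8.87 and 8.88 with deltamethrin. Both deltamethrin arrays were lower, and its estimate of -0.44 ± 0.19 (adjusted p = 0.371) was the lowest of the 50. Psme3ip1, whose product binds that of Psme3, was at 13.40 and 13.28 with vehicle and 13.28 and 13.16 with deltamethrin, an estimate of -0.12 ± 0.17 (adjusted p = 0.813). Without these genes, the other 48 had a median of 0.02.

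**Figure D3:**
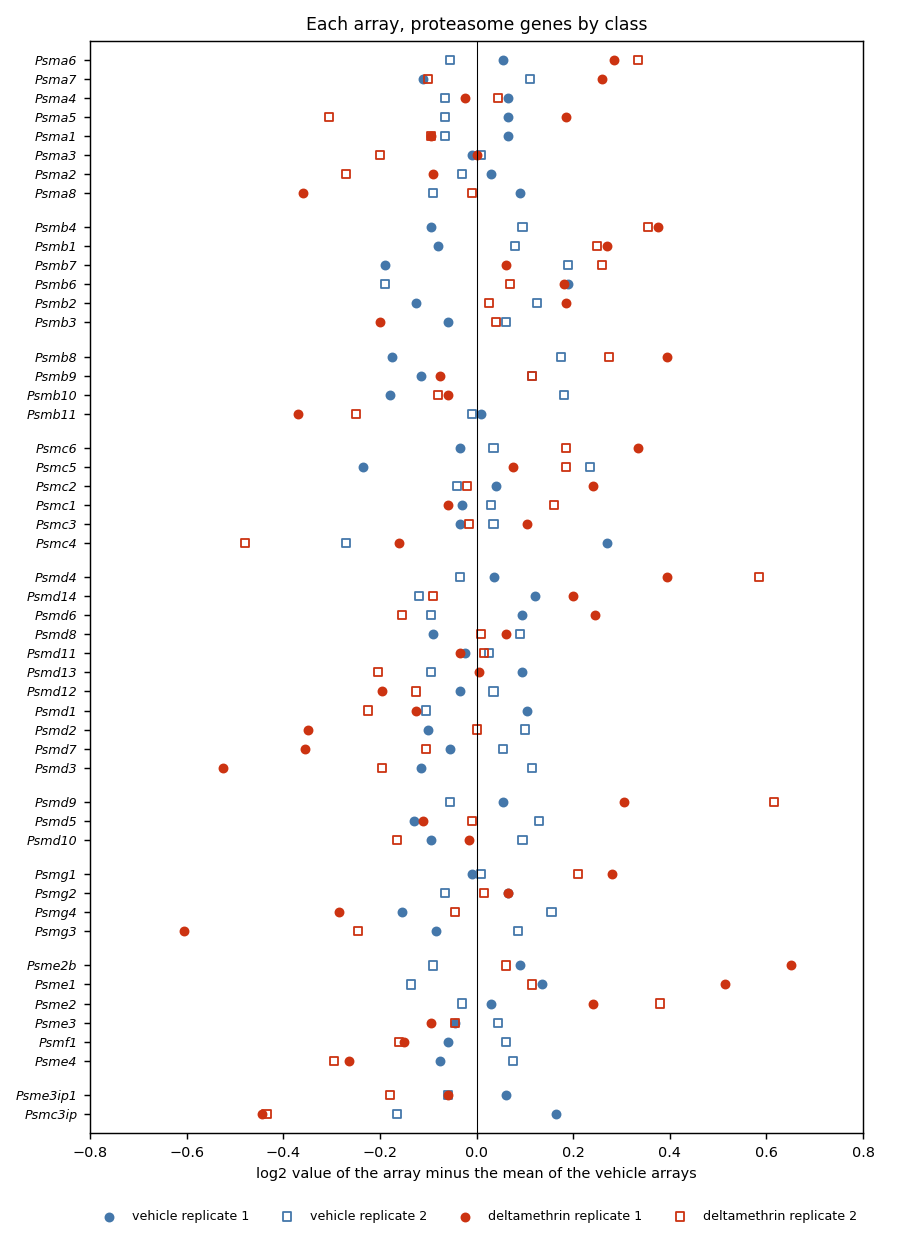
Log2 value of each array minus the mean of the vehicle arrays (horizontal axis) for the 50 proteasome genes, in rows ordered by class and estimate; blue is vehicle, red is deltamethrin, filled circles are replicate 1 and open squares replicate 2. The red and blue marks overlap for 30 of the 50 genes.

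Class medians lay close together. They ran from -0.10 for the 19S non-ATPase genes to 0.14 for the constitutive beta genes, leaving out the pair of genes outside the particle. The median of the beta class, taken per array as the difference from the vehicle mean, was -0.09 and 0.09 on the vehicle arrays and 0.18 and 0.16 on the deltamethrin arrays. That of the 19S non-ATPase class was -0.025 and 0.025 with vehicle and -0.035 and -0.105 with deltamethrin. That of the 19S ATPase class was -0.03 and 0.03 with vehicle and 0.09 and 0.07 with deltamethrin. The deltamethrin arrays thus lay above the vehicle arrays for the beta and ATPase classes. They lay below them for the non-ATPase class, for deltamethrin replicate 1 by little (-0.035 beside -0.025 on vehicle replicate 1). For the alpha, immunoproteasome, chaperone and activator classes the arrays of the groups overlapped or tied. These differences between classes were small and were not tested. Over the 30 constitutive subunits of 20S and 19S the median was 0.04, with 17 estimates above 0 and 13 below.

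Genes that work with the proteasome but do not carry a Psm symbol were counted as a list of 36 genes, of which 27 were measured. In limma 0 of 27 passed (0.432% of all probe sets), 1 was below an unadjusted p of 0.05 (13.7% of all probe sets), and the median was -0.04. The list's largest estimate was that of Nfe2l1, which encodes NRF1. It was at 14.71 and 14.90 with vehicle and at 15.54 and 15.61 with deltamethrin. Both deltamethrin arrays lay well above both vehicle arrays, and the log2 fold change was 0.77 ± 0.17 (adjusted p = 0.149), a fold of 1.71. With a mean-variance trend, which called 806 probe sets in place of 96, Nfe2l1 passed (adjusted p = 0.00441); 0 of the 50 proteasome genes did. In that fit 9 of 50 were below an unadjusted p of 0.05, where 15.9% of all probe sets and 25.4% of those above the median level were.

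Nfe2l2, which encodes NRF2, was at 6.92 and 6.77 with vehicle and at 6.96 and 7.06 with deltamethrin, an estimate of 0.16 ± 0.17. Mafg, a small partner protein of both factors, was at 7.66 and 7.72 with vehicle and at 8.07 and 8.02 with deltamethrin. Its groups did not overlap, and the estimate was 0.36 ± 0.16 (adjusted p = 0.405). Keap1, which holds NRF2 in check, and Bach1, a repressor at the same elements, were at 0.16 and 0.12. Ngly1, the enzyme that trims sugars from NRF1, was at 0.10, with deltamethrin arrays at 5.34 and 6.29.

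Among assembly and subunit genes of other names, Pomp, the maturation factor of the core, was at 13.02 and 12.79 with vehicle and at 12.85 and 12.48 with deltamethrin. Its groups overlapped, and the estimate was -0.24 ± 0.20 (adjusted p = 0.662). Sem1, a small lid subunit, was at -0.05. Among ubiquitin ligases and deubiquitylases at the proteasome, Ube3a was at 12.60 and 12.70 with vehicle and at 12.12 and 12.34 with deltamethrin, an estimate of -0.42 ± 0.17 (adjusted p = 0.366). Uchl5 and Usp14, which remove ubiquitin at 19S, were at -0.30 and -0.04. The unfoldase gene Vcp was at -0.18, and the shuttle factor genes Rad23b, Ubqln1 and Ubqln2 lay between -0.20 and 0.14. Ufd1 was at 0.37 with both deltamethrin arrays higher (adjusted p = 0.447 in limma). Of the 27 genes, 9 had both deltamethrin arrays higher (20.3% of all probe sets) and 4 had both lower (23.5% of all probe sets). The other 9 genes of the list are not analysed here.

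**Figure D4:**
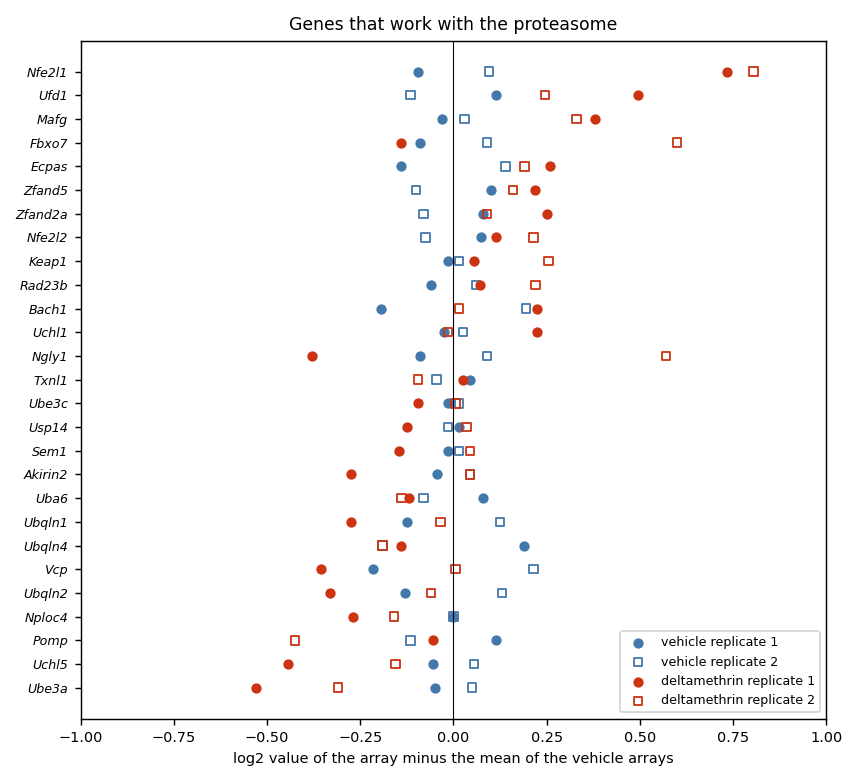
Log2 value of each array minus the mean of the vehicle arrays (horizontal axis) for the 27 measured genes that work with the proteasome, ordered by estimate; blue is vehicle, red is deltamethrin, filled circles are replicate 1 and open squares replicate 2. Nfe2l1, at the top, has both deltamethrin arrays above both vehicle arrays by an estimate of 0.77, and Ube3a, at the bottom, is at -0.42.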

How the data were processed

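Total RNA (500 ng, RNA integrity number above 9) was labelled and hybridised to 1 array per sample, per the labels' protocols. The authors deposited log2 values, 1 per probe set and array, made with Transcriptome Analysis Console and RMA, as the submitters' processing notes list them; versions and genome build were not found among the sources. RMA aligns the arrays' distributions, so a shift of all transcripts together would not be seen. Symbols came from the platform annotation (19572 of 22206 probe sets with 1 symbol, 2634 unnamed here), and all 50 members matched the RefSeq gene table. Deltamethrin minus vehicle was fitted with limma 3.58.1 in R 4.3.3 (lmFit and eBayes, default settings, 2 residual and 4.43 prior degrees of freedom), two-sided, with Benjamini-Hochberg adjustment over all probe sets. The fit was tested on simulated data. The members, lists, motifs and tests were chosen with earlier results of these data known. Chosen by rule were the highest and lowest gene of each class, the cutting subunits, the 3 smallest p-values of each list and preset partner genes; other genes given with values were chosen after those were seen.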

Additional observations from a re-analysis of the deposited data

How the results depend on the processing

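Counts of called proteasome and antigen processing genes were 0 under all 11 alternatives. The count of called partner genes changed from 0 to 1 (Nfe2l1) with a mean-variance trend and was 0 under the other alternatives. Leaving out any 1 array, with the spread then taken from the other group, gave 0 calls over all probe sets, as did ordinary variances and the replicate block. The block fit thus called 0 of 50 proteasome genes. The array numbers pair nothing that the labels name, and the correlation of the differences between replicates 1 and 2 of both groups was 0.127 over all probe sets and 0.401 over the 50 proteasome genes. Proteasome genes with an interval inside 2-fold numbered 36 with ordinary variances and 42 to 46 without 1 array; these counts and those inside 0.5 (46 to 48 without 1 array) were chosen after seeing the data.

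Class medians are small and moved with single arrays. The median of all members was 0.0381 with quantile normalization and ran from -0.0325 (without vehicle replicate 1) to -0.0075 without 1 array. Without 1 array the ranges were 0.08 to 0.28 for constitutive beta genes, 0.015 to 0.09 for ATPase genes, -0.10 to -0.035 for non-ATPase genes, -0.18 to 0.07 for 19S chaperones and 0.0075 to 0.11 for activators. They were -0.11 to -0.0125 for alpha genes and -0.11 to -0.015 for 20S chaperones. For the immunoproteasome class the range was -0.17 (without vehicle replicate 1) to 0.12 (without vehicle replicate 2). The median of that class thus changed sign, as did that of the 19S chaperones. Without dim probe sets, which removed Psmg3 and Psmb11, the medians were 0.04 for 20S chaperones and 0.02 for the immunoproteasome class, both with a change of sign. The sign of 21 of the 50 estimates, all of them at most 0.16 in size, changed without at least 1 of the arrays. Among genes chosen by rule these were Psmb3 (-0.20 to 0.04), Psmb6 (-0.065 to 0.32), Psmb7 (-0.03 to 0.35), Psmb9 (-0.10 to 0.14), Psmb10 (-0.25 to 0.11), Psmd10 (-0.18 to 0.005), Sem1 (-0.14 to 0.045) and Tap1 (-0.32 to 0.12), none of them called in any fit. Sem1 and Tap1 are not among the 50. The number of arrays limits the precision, and the smallest change called over all probe sets was 2.32-fold in the default fit.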
